A study of Mus musculus with 12 samples.

Results

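Between 0 h and 48 h with interferon-γ (IFN-γ), 160 genes of mouse peritoneal macrophages lost their ac4C peak and 50 gained one, of the 1725 genes with a peak at either time. The lost genes held the chaperone Hsp90ab1, the splicing factors Sfpq and Srsf3 and the surface receptors Itgam, Il10rb and Tfrc. The gained genes held the selenoprotein Selenow, the ribosomal protein Rpl41, the sialic acid receptor Cd33 and the histone methyltransferase Kmt5a. A gene counted as lost when a peak centre lay in it in both 0 h lists and in neither 48 h list, and as gained in the reverse case. The same rule over merged regions, joined where peaks of any list overlapped by 1 base, gave 193 lost and 54 gained of 2257 regions. Over all 6 lists of the series, with 24 h, 2066 genes and 2808 regions had a peak.

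Peritoneal macrophages are phagocytes of the abdominal cavity, and IFN-γ is the cytokine of T cells and NK cells that drives their classical activation. N4-acetylcytidine (ac4C) is a cytidine with an acetyl group, written into RNA by the enzyme NAT10. It is long known in ribosomal and transfer RNA, and in messenger RNA it has been linked to stability and translation. In RIP-seq an antibody pulls down RNA that carries the mark, and a peak is a stretch where the pull-down is enriched over its control.

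The cells were kept in serum-containing medium, and the groups compared here are the ac4C pull-downs at 0 h and at 48 h of IFN-γ, 2 samples each. The labels name IFN-γ as the treatment of every sample, the 0 h ones included, and give no mouse strain, age, sex or dose. No group was kept for 48 h without IFN-γ, so IFN-γ and the time elapsed cannot be told apart. Pull-downs at 24 h and total RNA at each time complete the 12 samples; the latter libraries are not used here. Each time has 2 deposited peak lists, which carry the hour but no sample name; list 1 and list 2 are names without an order. The labels do not state whether both samples of a time had their own animal or culture, so the spread between lists may be technical.

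The 0 h lists held 1151 and 946 peaks and the 48 h lists 674 and 611, that is 1049 ± 145 against 642.5 ± 44.5 (SD, n = 2 lists each), a log2 ratio of -0.71. The groups did not overlap, and the two-sided exact permutation p was 0.33, the smallest that 2 lists against 2 allow. Depth moved with time: the input coverage, recovered from the authors' fold and p, was 100% and 91.5% of the deepest list at 0 h and 57.3% and 43.9% at 48 h, and the pull-down coverage 92.1% and 78.7% against 78.7% and 68.1%. The share of peaks with a q (the p adjusted for multiple testing) of 1 was 25.6% ± 0.844 at 0 h and 39.2% ± 0.404 at 48 h (SD, n = 2 lists each). Of 18 macrophage markers 5 had a peak in at least 1 list, Itgam and Lyz2 among them, and of 33 resident peritoneal macrophage genes 4 did, while the B cell, T and NK cell, neutrophil and mast cell, and dendritic cell lists had 0 members with a peak. Of 16 mesothelial and fibroblast markers Wt1 had a peak, in 1 list at 48 h. A peak list holds no level below its threshold, so these counts do not give the make-up of the cells.

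Losses outnumbered gains at both levels when all 4 lists were used. Without 48 h list 1 the counts were 236 genes lost and 184 gained and 249 regions lost and 277 gained, and without 48 h list 2 they were 245 and 263 genes and 277 and 372 regions. Both 0 h lists marked 426 genes, of which 160 (37.6%) were lost, 161 stayed in 1 of the 48 h lists and 105 in both. Both 48 h lists marked 205 genes, of which 50 (24.4%) were gained, 50 were marked once at 0 h, and the same 105 were marked throughout. As a share of all 1725 genes, 9.28% were lost and 2.9% gained. For protein-coding genes alone the counts were 141 lost (9.45%) and 44 gained (2.95%) of 1492, or 37.9% of the 372 in both 0 h lists and 24% of the 183 in both 48 h lists. Of regions, 8.55% were lost and 2.39% gained, or 45.5% of the 424 in both 0 h lists and 28.7% of the 188 in both 48 h lists.

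**Figure D1:**
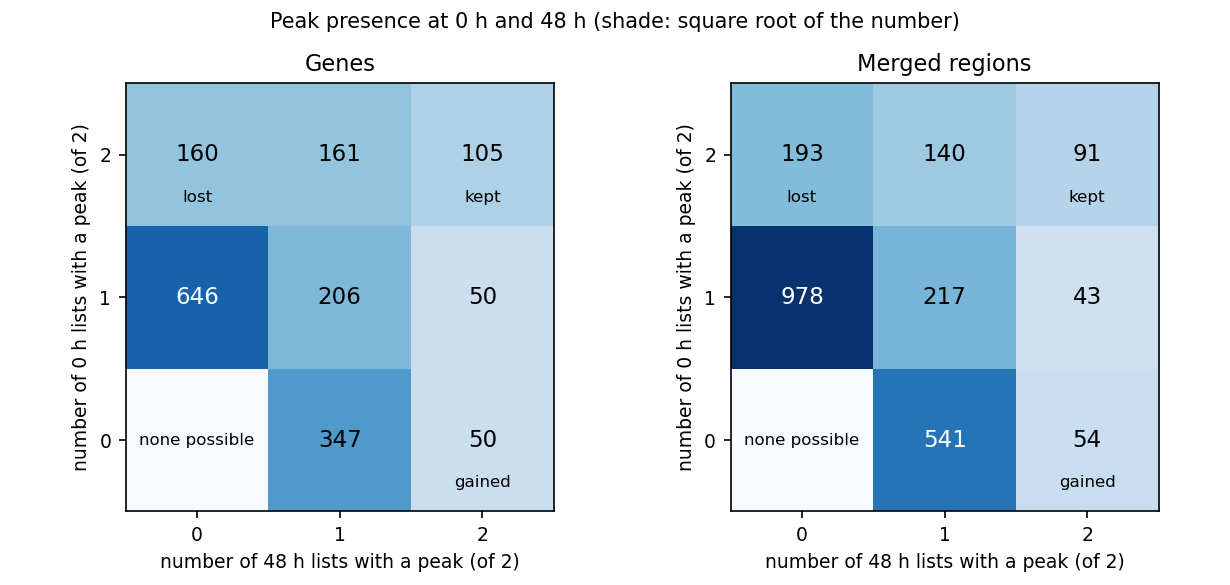
Numbers of genes (left) and merged regions (right) by how many of the 2 lists at 0 h (vertical) and of the 2 at 48 h (horizontal) held a peak, with darker shade for larger numbers. The lost corner holds 160 genes and 193 regions, the gained corner 50 and 54, and the kept corner 105 and 91, while 646 and 347 genes had a peak in a single list only.

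The 48 h lists shared fewer genes with each other, 205, than either shared with either 0 h list, 226 to 288. The 0 h lists were longer, with 935 and 819 genes against 596 and 528. The 0 h lists shared 426 genes, 45.6% of list 1 and 52.0% of list 2, and the 48 h lists shared 205, 34.4% and 38.8%. Across times, 27.6% to 30.8% of the genes of a 0 h list were in a given 48 h list, below the share the 0 h lists had in common. The shorter 48 h lists cap that share, so the 2 values are not on equal terms. In the other direction, 37.9% to 53.6% of the genes of a 48 h list were in a given 0 h list. The highest of these was 48 h list 2, with 283 of its 528 genes in 0 h list 1.

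How the counts divide depended on list length. When each list was cut to its 611 peaks of smallest p, as many as the shortest list holds, 74 genes were lost and 68 gained, so the excess of losses nearly went for genes, while 95 regions were lost and 66 gained. At matched input coverage, with every list scaled to the shallowest, 114 genes were lost and 52 gained. Scaled down to the depth of 48 h list 1, 126 of the 160 lost genes (78.8%) still passed the authors' threshold in both 0 h lists, and at that of 48 h list 2, 110 (68.8%). For the kept genes these shares were 93.3% and 90.5% of 105.

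**Figure D2:**
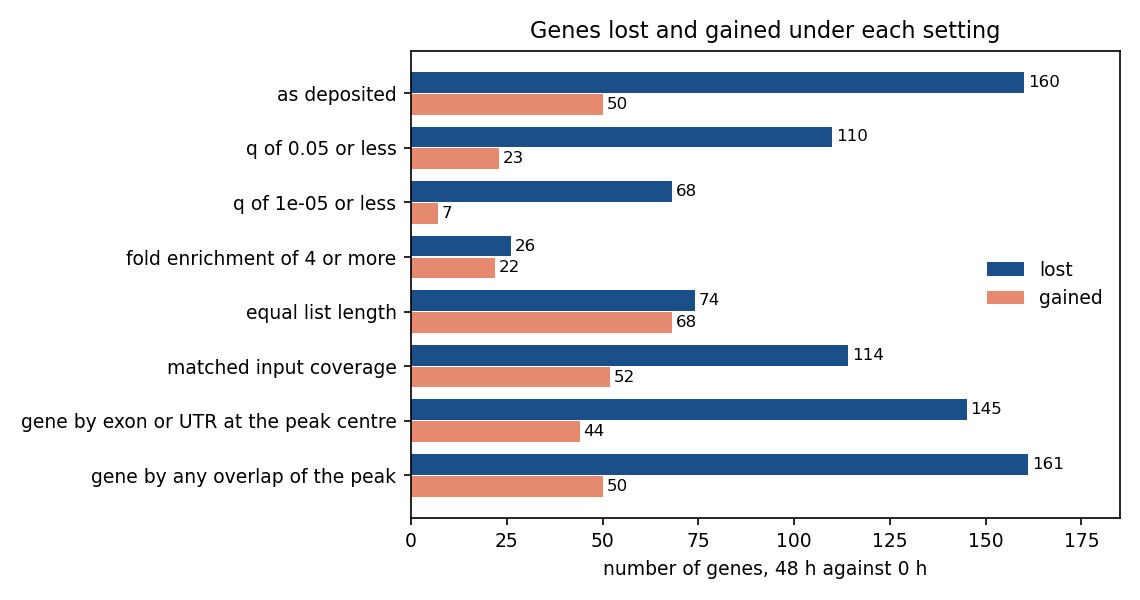
Genes lost (dark) and gained (light) between 0 h and 48 h under each setting, as bars from 0. The bars run from 160 and 50 as deposited to 74 and 68 at equal list length and 26 and 22 at a fold enrichment of 4 or more.

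Lost genes had lower 0 h values than kept genes, given here with no test because the presence of a peak chose both. The authors' −log10 p of the strongest peak of a gene had a median of 6.55 in 0 h list 1 and 5.77 in list 2 for the 160 lost genes, and of 13.4 and 11.5 for the 105 kept. The strongest peaks of both lists lay in different regions for 40 of the 160 lost genes and 18 of the 50 gained genes. The ranges overlapped widely, from 2.34 to 35.2 for lost genes and 3.04 to 91.1 for kept genes in list 1. The median fold enrichment was 2.98 and 2.79 for lost genes and 3.04 and 3.10 for kept genes. The median gained gene reached a −log10 p of 6.68 and 5.01 in the 48 h lists. A q of 1e-05 or less in both lists of the time that held the peak was met by 26 lost genes (16.2%), 5 gained genes (10%) and 52 kept genes (49.5%). At the weak end, the lost gene Srsf2 stood at a −log10 p of 2.48 and 2.55, close to the threshold, and the 161 genes that kept 1 list at 48 h had a median of 5.34 or 5.08 there.

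Chaperones, which fold proteins in the cytosol and the endoplasmic reticulum, were lost in 6 of the 8 members that both 0 h lists marked, against 37.6% of all genes. They were Hsp90ab1, Hspa5, Hspd1, Dnaja2, Pdia6 and Manf, while Hspa4 had a peak in both 48 h lists and Hspa9 in 1. The 3′ UTR region that Hspa9 had in both 0 h lists was in neither 48 h list, so its 48 h peak lay elsewhere. Hsp90ab1 (ENSMUSG00000023944), a cytosolic chaperone of the HSP90 family, was marked in exon 6 (chromosome 17, 45881261 to 45881529, build GRCm39), with fold enrichments of 2.37 and 2.54 and −log10 p of 27.2 and 27.9 in the 0 h lists. No list of 24 h or 48 h held a peak for it. Hspd1, the mitochondrial chaperonin, had strongest peaks at −log10 p of 20.2 and 2.96, the first in the 3′ UTR and the second in exon 9, and Pdia6, a disulfide isomerase of the endoplasmic reticulum, had a 3′ UTR peak at 8.45 and 5.47. Hsp90b1, the HSP90 of the endoplasmic reticulum, was gained with peaks in different places, the last exon in list 1 and an intron in list 2, at folds of 4.46 and 5.40. The chaperone count rests on weak peaks: at equal list length or at matched input coverage 3 members had a peak in both 0 h lists and 2 of them were lost.

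Splicing factors were the list with the most losses, 9 of 22 in both 0 h lists (40.9%, near the share of all genes), and none of the 7 in both 48 h lists was gained. The SR proteins, which define exons, gave Srsf2, Srsf3 and Srsf5, and the hnRNPs, which bind nascent transcripts, gave Hnrnpa2b1, Hnrnph1 and Hnrnpl. Sfpq (ENSMUSG00000028820), a paraspeckle and splicing protein, had a 3′ UTR peak at chromosome 4, 126924135 to 126924529 in 0 h list 2, at a fold of 5.43 and a −log10 p of 16.9. In 0 h list 1 its strongest peak lay in exon 5, at 3.94 and 12.9, and another peak of the gene reached a fold of 5.28. Srsf3 had a last-exon peak at −log10 p of 13.1 and 11.5, and Hnrnpl one at 9.59 and 15.3. Tardbp and Mbnl1, which bind RNA to direct splicing, completed the 9. Srsf1, Srsf6, Hnrnpk, Hnrnpu, Syncrip and Rbm25 kept a peak in all 4 lists. Splicing losses were 7 of 18 at matched input coverage and 6 of 16 at equal list length, where all genes stood at 34.9% and 28.4%. They were 8 of 15 at a q of 0.05 or less and 9 of 10 at a q of 1e-05 or less, where all genes stood at 47.4% and 53.5%. These counts also take a member as lost when its 48 h peaks fall short of the q. Of the 9 named losses only Sfpq and Srsf3 were lost at a q of 1e-05 or less. Over all genes, 26 of the 68 losses at that q were losses at the authors' threshold.

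Surface and phagocytic receptors moved both ways, with 5 of 10 lost (50%) and 3 of 7 gained (42.9%), against 37.6% and 24.4% of all genes. Losses were 3 of 8 at matched input coverage and 5 of 6 at a q of 0.05 or less, where all genes stood at 34.9% and 47.4%. Of the 5 lost at the authors' threshold, Cd53, Tfrc and Il10rb were lost at that q and Cd44 and Lilrb4a were not. Itgam (ENSMUSG00000030786), the CD11b chain of complement receptor 3, had a 3′ UTR peak at chromosome 7, 127716623 to 127717066 with folds of 2.60 and 2.58 and −log10 p of 14.8 and 12.4 at 0 h. Its peak also lay on the predicted gene Gm49368, so the assignment is uncertain. Itgam was counted with the macrophage markers and is not among the 5 lost receptors. Il10rb, which pairs with the ligand-binding chain for IL-10, had a 3′ UTR peak at −log10 p of 9.99 and 22.6. Tfrc, the importer of transferrin-bound iron, had one at 15.5 and 10.0. Cd53, a leukocyte tetraspanin, and Cd44, the hyaluronan receptor, were also lost, as was the inhibitory receptor Lilrb4a, whose peak lay in an intron. Gained were Cd33 (ENSMUSG00000004609), with a 3′ UTR peak at chromosome 7, 43176495 to 43176809 at folds of 4.73 and 4.05 and −log10 p of 20.2 and 11.3, Clec4e, the C-type lectin Mincle, at 9.25 and 3.27, and Csf2ra, the GM-CSF receptor α chain, at 8.00 and 5.95. For Cd33 and Clec4e no list of 0 h or 24 h held a peak.

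Chromatin genes and regulators of messenger RNA fate gave 7 losses and 7 gains together. Of the 13 chromatin genes in both 0 h lists 4 were lost (30.8%, against 37.6% of all genes), Tet3 and Dnmt1, which oxidise and write DNA methylation, Ctcf, which anchors chromatin loops, and Set. Of the 8 in both 48 h lists 4 were gained (50%, against 24.4% of all genes), and 1 of 2 at a q of 0.05 or less. Kmt5a (ENSMUSG00000049327), which methylates histone H4, had a 3′ UTR peak at chromosome 5, 124598866 to 124599156 at folds of 3.29 and 4.52 and −log10 p of 12.6 and 12.8 at 48 h. Kdm5b, a histone H3 lysine demethylase, Arid1a, a subunit of the SWI/SNF remodeller, and Pds5a, which regulates cohesin, were the other gains. In messenger RNA decay and modification 3 of 6 were lost (50%, against 37.6% of all genes) and 3 of 5 gained (60%, against 24.4%). Lost were Upf1, the helicase of nonsense-mediated decay, and Ddx6 and Lsm14a, partners in translational repression. Gained were the m6A reader Ythdf1, the RNA-binding protein Igf2bp2 and the deadenylase subunit Cnot6l. At a q of 0.05 or less 1 of 2 was lost, Ddx6, and 1 of 2 gained, Igf2bp2. Ythdf1 had its gained peak in the 3′ UTR at −log10 p of 6.68 and 3.62 and Igf2bp2 in the last exon at 10.0 and 6.17.

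Transcription factors lost 5 of 16 (31.3%) and gained 2 of 16 (12.5%), below the shares of all genes, 37.6% and 24.4%, with no test of the difference. Stat6, the signal transducer of IL-4, had a 5′ UTR peak at 0 h with folds of 2.23 and 2.58 that was also present in both 24 h lists. Egr2, Klf13, Foxo3 and Usf1 were the other losses, with 3′ UTR peaks. Zmiz1 and Rbpj, the DNA-binding partner of Notch, were gained. Kinases and phosphatases lost 7 of 19 (36.8%, near the share of all genes) and gained none of 6: Gsk3a, the SRC-family kinase Lyn, Tec, Stk11, the phosphatase Ptpn12 and the protein phosphatase 1 subunits Ppp1cb and Ppp1r12a. Stk11, the LKB1 kinase, had its peak in the 5′ UTR at folds of 4.43 and 4.86.

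In metabolism, iron, selenium, redox and glycolysis genes lost 4 of 10 (40%, near the 37.6% of all genes) and gained 2 of 5 (40%, against 24.4%). Gpx1, glutathione peroxidase 1, and Gsr, glutathione reductase, had last-exon peaks at 0 h. Prdx1, a peroxiredoxin, was lost as well, as was Tfrc. Selenow (ENSMUSG00000041571), a small selenoprotein, had a 3′ UTR peak at chromosome 7, 15651235 to 15651465 with folds of 5.06 and 6.19 and −log10 p of 34.7 and 26.8 at 48 h, the highest-ranked gained gene. Sephs2, which makes the selenium donor for selenoproteins, was gained with a 3′ UTR peak at −log10 p of 12.9 and 5.85. Lipid genes also lost 4 of 10, near the share of all genes, and gained none of 2: Lpl, lipoprotein lipase, Hsd17b4, an enzyme of peroxisomal β-oxidation, the sphingomyelin synthase Sgms1 and the oxysterol-binding protein Osbp. The Hsd17b4 peak lay in an intron and also on Cd63-ps, a pseudogene of the tetraspanin Cd63, so its gene is uncertain.

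Losses took a smaller share of cytoskeletal, traffic and lysosomal genes than of all genes (37.6%), with no test of the difference. Actin and tubulin genes lost 3 of 16 (18.8%; Actn4, Rhob and Tuba1c) and gained Myl12b, a myosin light chain whose peak also lay on Gm49909. Of the 16, 8 were kept in all 4 lists, among them Actb, Cfl1, Myh9 and Actr3. Small GTPases and vesicle traffic lost 3 of 15 (20%; Rab21, Clta and Stx4a) and kept 9. Lysosomal genes lost 1 of 9 (11.1%), Atp6v1b2, a subunit of the proton pump, at −log10 p of 16.9 and 25.1. Ctss, cathepsin S, which trims the MHC class II invariant chain, was gained with a last-exon peak in 48 h list 1 alone, at a fold of 4.24 and a −log10 p of 56.5. The peak it had in both 48 h lists lay in exon 3 and reached a fold of 2.17 and a −log10 p of 3.02 in list 2. At a q of 0.05 or less, lysosomal losses were 3 of 7 and actin and tubulin losses 4 of 11, beside 110 of 232 over all genes (47.4%). At a q of 1e-05 or less they were 3 of 5 (60%) and 4 of 8 (50%), beside 53.5% of all genes. The lysosomal share was then not the smaller one. Traffic losses were 2 of 8 and 0 of 5 at these thresholds.

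No gene on the lists of IFN-γ signalling and its effectors was lost or gained, but these lists had few members that could be. Both 0 h lists marked 1 signalling gene and 2 effectors, and both 48 h lists 2 and 1. For scale, 1725 genes had a peak over all, beside 27025 genes with a RefSeq promoter, so a low count is not particular to these lists. Among 28 receptor, JAK, STAT and IRF genes of the IFN-γ response, a list without Stat6, 2 had a peak: Ifngr2, a receptor chain, in all 4 lists, and Jak2 in 1 list at 0 h and both at 48 h. Among interferon-induced effectors 5 of 76 had a peak, Slfn2, Slfn5, Cd274, Bst2 and Ifi207, and 0 were lost or gained. Of antigen presentation genes, Tapbp, the peptide-loading factor of MHC class I, was lost at −log10 p of 6.01 and 5.22. Inhba, the activin A subunit, was gained with its strongest peaks in the 3′ UTR, in list 2 at a fold of 3.38 and in list 1, in another region, at 1.88. The former also lay on Gm48444. A 5′ UTR region of Inhba was gained too, at a fold of 3.24 in list 2, and also lay on B230303A05Rik. Among the genes of alternative activation and repair 2 of 7 were lost (28.6%, against 37.6% of all genes), Stat6 and Igf1. Of this list 2 of 6 were gained (33.3%, against 24.4% of all genes), Vegfa and Anxa2. At a q of 0.05 or less 0 of 5 were lost and 1 of 5 gained, Vegfa, beside 110 of 232 and 23 of 90 over all genes. At a q of 1e-05 or less 3 of 5 were lost (60%, against 53.5% of all genes) and 0 of 1 gained. The share lost was thus not steadily below that of all genes. Translation factors lost 2 of 8 (25%), Eif3c and Gspt1, and gained 2 of 6 (33.3%), Eif1ax and Eif5. Ribosomal proteins lost 1 of 2, Rplp1, and gained 1 of 1, Rpl41. All genes stood at 37.6% and 24.4%. Rpl41 (ENSMUSG00000093674), a short ribosomal protein, had a last-exon peak at folds of 3.01 and 3.51 and −log10 p of 20.7 and 22.5. Ddx21 and Ebna1bp2, nucleolar proteins of ribosome assembly, were lost (2 of 4), as was Sdhd, a subunit of mitochondrial complex II (1 of 4). The ubiquitin-conjugating enzyme Ube2k was gained (1 of 5). Of the 141 lost coding genes 64 were on a list, and of the 44 gained 24.

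**Figure D3:**
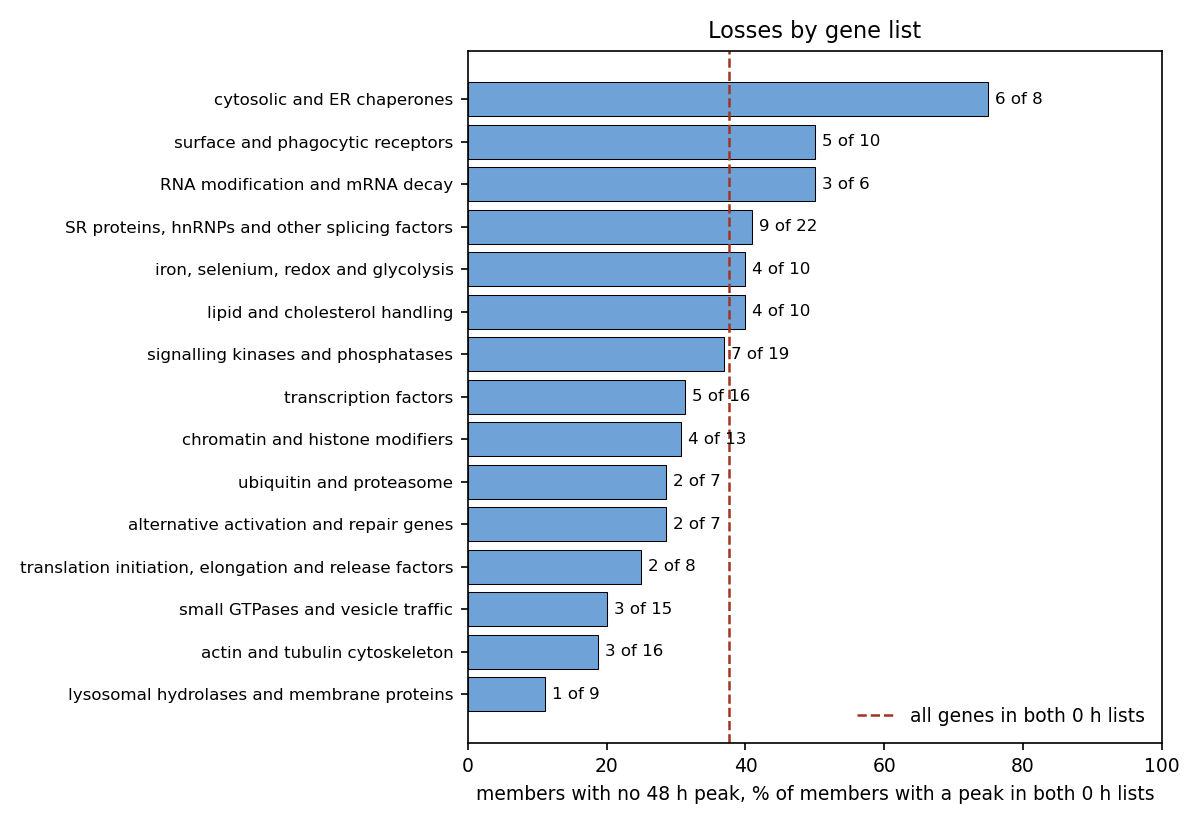
Share of list members with a peak in both 0 h lists that had none at 48 h, for lists with 5 or more such members. Bars start at 0, the count stands at each bar and the dashed line is the share over all genes in both 0 h lists, 37.6%. Chaperones stand at 75% (6 of 8) and lysosomal genes at 11.1% (1 of 9), with splicing factors (9 of 22) near the line.

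Late moves are the losses that still had a peak at 24 h and the gains that had none then. Of the 160 lost genes 110 had no peak in a 24 h list, 40 had one in 1 list and 10 in both, so 50 still had a peak at 24 h. Of the 50 gained genes 18 had no peak at 24 h, 22 had one in 1 list and 10 in both. Both times are compared with the same 0 h lists, so the 24 h lists are set beside these moves as values only. Among the losses that still had a 24 h peak, the highest-ranked was Ahnak, a large scaffold protein. It had a 3′ UTR peak at −log10 p of 16.2 and 28.7 at 0 h. The region of its strongest 0 h peak was in no 24 h list. The 24 h peak of Ahnak, at 6.90 in 1 list, lay elsewhere on the gene. Cd53 was in both 24 h lists at folds of 2.80 and 1.64, and Fam214b at 6.76 and 4.61. Tmem165, a Golgi membrane protein, had a 3′ UTR peak at folds of 2.97 and 5.75 at 0 h. Among the losses without a 24 h peak, Cyb5r1, a cytochrome b5 reductase, had a 3′ UTR peak at folds of 5.95 and 4.97 and Epas1, the hypoxia-inducible factor HIF-2α, one at 3.66 and 3.01. Sfpq, Cyb5r1, Cd33 and Selenow kept their status under every alternative run on all 4 lists, where any peak of the gene counts, and the other named genes lost it under at least 1. A 24 h peak anywhere on the gene was found for 3 of 6 lost chaperones, 2 of 9 splicing factors and 0 of 4 redox genes. It was also found for the ubiquitin ligase Rnf128 and the proteasome subunit Psmd13 (2 of 2). Over all lost genes it was 50 of 160, and counts this small do not rank the lists by time. Among the gains without a 24 h peak were Rpl41, Cd33, a 3′ UTR peak shared by Ramp2 and Vps25 at folds of 5.66 and 4.84, and Gfpt2, the rate-limiting enzyme of the hexosamine pathway, at 4.54 and 4.78. All 4 gained chromatin genes already had a 24 h peak, as did 32 of all 50 gained genes. Among lost regions, the centre lay in a 3′ UTR for 79 of 140 without a 24 h peak (56.4%), 17 of 42 in 1 24 h list (40.5%) and 4 of 11 in both (36.4%). Among gained regions it did for 13 of 27 without a 24 h peak (48.1%), 14 of 20 in 1 list (70%) and 2 of 7 in both (28.6%).

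**Figure D4:**
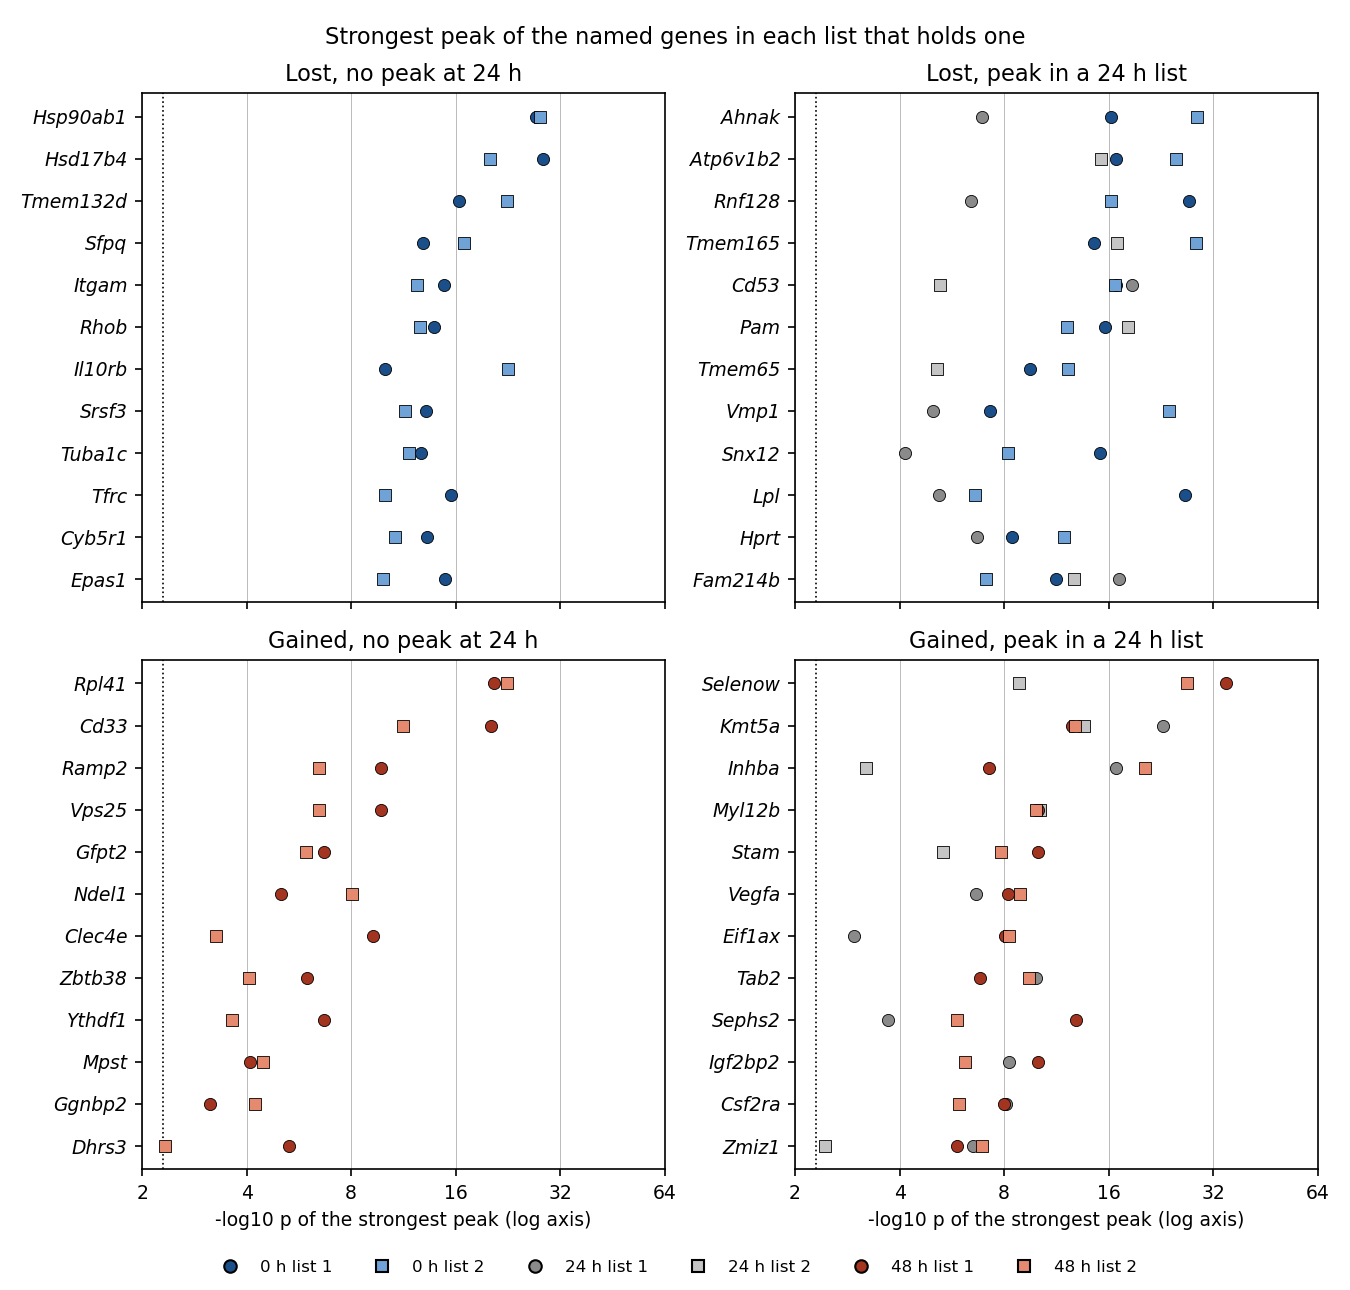
The authors' −log10 p of the strongest peak (log axis) of the 48 highest-ranked lost and gained protein-coding genes, 12 in each panel, split by whether a 24 h list held a peak. Each symbol is 1 list that held a peak and a list without one has no symbol, so that in the lost panels no 48 h symbol appears; the dotted line is a p of 0.005.

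Lost, gained and kept regions lay in 3′ UTRs more often than in any other place. The peak centre lay in a 3′ UTR, the stretch after the coding sequence, for 100 of 193 lost regions (51.8%, 95% Wilson interval 44.8 to 58.8%), 29 of 54 gained (53.7%, 40.6 to 66.3%) and 53 of 91 kept (58.2%, 48.0 to 67.8%), beside 51.6% of all 2257 regions. Kept regions lay in a last exon in 27.5% of cases (19.4 to 37.4%), lost regions in 15.5% (11.1 to 21.3%), and the intervals, which cover counting error only, overlap. Other exons held 11.9% of lost, 18.5% of gained and 5.49% of kept regions. Of all 424 regions in both 0 h lists, 45.5% were lost. By place, the share lost was 43.3% of the 231 in 3′ UTRs and 35.7% of the 84 in last exons. It was 52.3% of the 44 in other exons and 72.7% of the 11 in 5′ UTRs. For introns it was 64.3% of 14 and outside genes 57.5% of 40. The 5′ UTR losses, 8 in all, lay on Nabp1, Marcks, Stk11, Stat6, Polr2a, Plk2, Wnk1 and Dcun1d5. Plk2, a polo-like kinase, had the strongest of these, at a fold of 5.45 and a −log10 p of 25.4. As a share of all peaks of a list, 3′ UTRs held 52.9% ± 3.68 at 0 h and 52.9% ± 9.28 at 48 h (SD, n = 2 lists each; exact permutation p = 1).

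**Figure D5:**
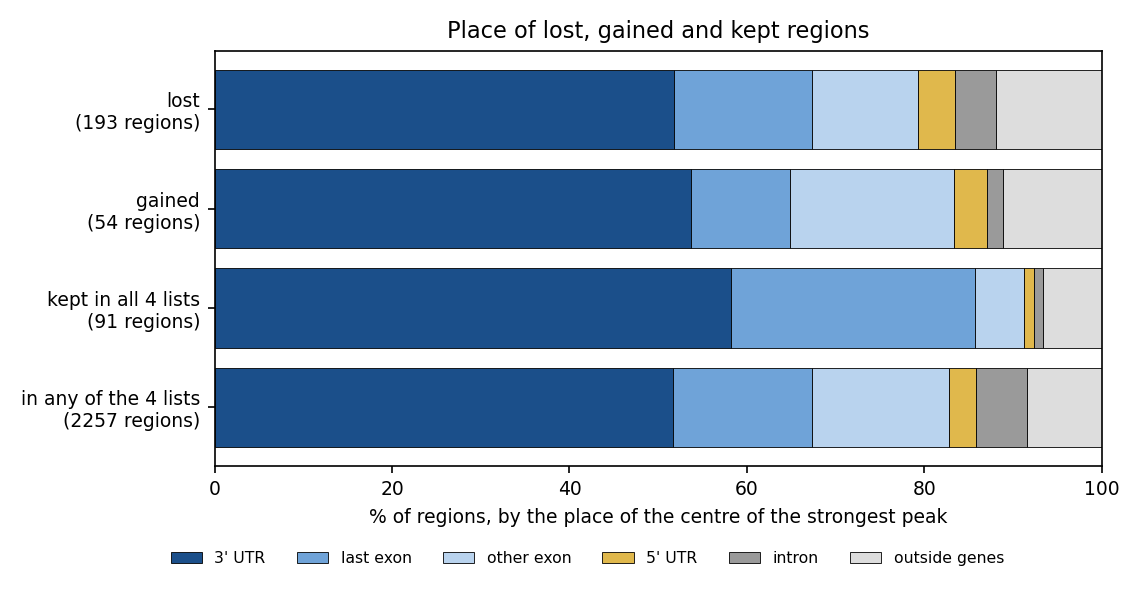
Place of the centre of the strongest peak, as a share of regions lost (193), gained (54), kept in all 4 lists (91) and in any of the 4 lists (2257). The 3′ UTR is the largest part in each bar, at 51.8%, 53.7%, 58.2% and 51.6%, and the last exon is widest among kept regions.

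A region could be lost without its gene being lost. Of the 193 lost regions 126 lay on a lost gene, 44 on a gene of another status and 23 in no gene. The genes Myo5a, Sh3glb1 and Kif5b had both a lost and a gained region. Myo5a, an actin-based motor, lost a region in exon 26 and gained one in exon 24, and Sh3glb1, a membrane-bending protein of autophagy, lost one in exon 2 and gained one in exon 5. Kif5b, a kinesin heavy chain, lost a 3′ UTR region and gained one in exon 12. The strongest −log10 p of the lost and the gained region was 6.60 and 3.23 for Myo5a and 3.53 and 8.45 for Sh3glb1. For Kif5b it was 4.81 and 4.99. The lower of these values lie near the authors' threshold, and a shift of the mark within the gene was not tested. Lost regions were a median of 279 bases wide, gained regions 242.5 and kept regions 332.5. Of the 160 lost genes 24 shared their strongest peak with another gene, and of the 50 gained genes 9 did. Among the 19 lost genes that are not protein-coding by RefSeq name, 8 were pseudogenes; the 6 gained were Gm12696, Gm48444, Gm49909, Gm38394, B230303A05Rik and Epb41l4aos.

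Promoters of the gained genes were searched for motifs of the interferon response, as a description of genes that moved together. In RefSeq promoters of build GRCm38.p6 (250 bases before to 50 after the start, both strands), GAAA followed by any 2 bases and again GAAA, as in the interferon-stimulated response element, was found in 3 of 41 gained coding genes (7.32%), 1 of 120 lost (0.833%) and 1 of 75 kept (1.33%), beside 3.99% of all 27025 genes. TTCNNNGAA, the site bound by STAT dimers, was found in 1 of 41 gained, 9 of 120 lost (7.5%) and 3 of 75 kept genes, beside 9.55% of all. The 2 motifs were searched separately and their matches may overlap. The 3 gained genes with the first motif are shown with the match in capitals, on the strand given.
Ctss, chr3:95526755-95526784, strand plus: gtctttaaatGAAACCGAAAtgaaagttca
Vegfa, chr17:46032500-46032529, strand plus: ccactaccgcGAAATGGAAAgctaaacccc
Dhrs3, chr4:144892941-144892970, strand minus: actttctccaGAAAAAGAAAggggggaaaa
Vegfa, which drives the growth of blood vessels, had its strongest 48 h peak in the 3′ UTR in list 2, at a fold of 3.81, and in the 5′ UTR in list 1, at 2.92. Dhrs3, a retinaldehyde reductase, was gained with a 5′ UTR peak at folds of 3.37 and 2.46. Counts of 3 and 1 are too few to rank these shares.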

How the data were processed

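ac4C RIP-seq was deposited as 6 peak lists, 2 for each time; the submitters' processing notes name MACS2 2.1.0, BWA 0.7.12 and the build GRCm39, with roles not given in the sources used here. Per the file headers, the authors' values of a peak are a fold ratio and the p and q as −log10, used only within a list; the control library is not given. BWA does not align across splice junctions. The smallest −log10 p, 2.30 to 2.33, put the authors' threshold near p of 0.005. A peak was 1 region with the values of its best summit. Its centre, as the authors annotated it, gave gene and place, 3′ UTR first where several applied. Protein-coding genes came by symbol from RefSeq GRCm38.p6 (95.0% of 2066 symbols matched). Members and lists were chosen with earlier results of these data known.

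Fold and p at 99.9% or more of the summits of each list were matched, within 0.005 of −log10 p (0.02 for the tallest), by a whole number of pull-down fragments, a factor per list and an input coverage; the step was tested on simulated data. The lowest common input coverage gave relative depth. Named were, by mean percentile of −log10 p among coding genes, the 12 highest lost and the 12 highest gained with and without a 24 h peak, and every lost or gained list member. Counts have no test; lists were compared by a two-sided exact permutation test. Python 3.11.15 was used with scipy 1.17.1 and pandas 2.3.3. Alternatives were 2 q thresholds, a fold of 4, equal list length, matched input coverage, other gene and region rules, and each list left out.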

Additional observations from a re-analysis of the deposited data

How the results depend on the processing

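Losses outnumbered gains for genes and regions at both q thresholds, at a fold of 4 or more, at matched input coverage and under the other gene and region rules, but at equal list length by 74 to 68 genes and 95 to 66 regions. Leaving out a 48 h list turned the order in part: without list 2, 245 genes were lost and 263 gained, with 277 and 372 regions, and without list 1, 249 regions were lost and 277 gained, while genes kept the order with 236 and 184. At a q of 0.05 or less 23 genes were gained and 117 regions lost and 22 gained. At a q of 1e-05 or less 68 genes were lost and 7 gained, with 75 and 7 regions. At a fold of 4 or more 26 genes were lost and 22 gained, with 27 and 18 regions. At matched input coverage 127 regions were lost. Leaving out 1 list at a time gave 236 to 507 genes lost, 62 to 263 gained, 249 to 746 regions lost and 66 to 372 gained; 1 list then stands for a time, which loosens the rule. The share of lost regions in 3′ UTRs ran from 47.6% to 56.7% and that of gained regions from 42.2% to 61.1%. Merging within 100 bases or a reciprocal overlap rule gave 192 and 183 lost regions. Of 109 named gene entries 75 kept their status at equal list length, 87 at matched input coverage and 16 at a fold of 4 or more. No paired analysis was possible because the list numbers are not tied to samples. Matching depth can only remove peaks, and 2 lists a time limit every count.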
